A study of Mus musculus with 30 samples.

Results

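The step from 28 dpi to 42 dpi was examined in RNA from the intermediate laminae on the stroke-denervated side of the cervical cord, the part of the spinal gray matter that loses its corticospinal input after a stroke of the opposite cortex. It was defined as the direct comparison of the 5 animals labelled 42 dpi (A1-1, A1-2, A1-3, A1-4 and A3-4) with the 5 animals labelled 28 dpi (A3-1, A3-3, A4-1, A4-3 and A4-4). These are 10 of the 29 animals with values. All 10 were adult female mice, labelled C57BL/6 (C57BL/6J in the study's methods), with a photothrombotic stroke, in which a light-activated dye clots the vessels of the right sensorimotor cortex. They carried no transgene. The labels set the groups apart by the number of days after injury, and the names of the animals also hold a unit number (1 and 3 at 42 dpi, 3 and 4 at 28 dpi). Outside unit 3, unit number and time point cannot be told apart. A sham-operated group of 5 animals, which had surgery without illumination, is given beside both groups as the background level. Total RNA was depleted of ribosomal RNA and sequenced, and a value is the normalized CPM of a gene in an animal, a read abundance scaled with edgeR. The values of an animal do not add up to a common total. Their sum ran from 790540 to 2256910 at 28 dpi and from 884368 to 1634704 at 42 dpi. The p-values of genes rest on the spread between animals within groups, pooled over all 29 animals of the 6 groups. Those of per-animal measures use only the 10 animals.

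In the denervated cord, lost corticospinal terminals leave synaptic space that fibers crossing from the intact side can enter. Axon guidance molecules such as semaphorins, netrins and ephrins, Notch and TGF-beta signals, and the extracellular matrix are known to influence such growth. Growth and synapse remodelling also rest on housekeeping machinery: ribosomes make protein, the endoplasmic reticulum folds membrane and secreted protein, the proteasome removes damaged protein, and vesicle traffic carries membrane along axons. The study names a set of growth-related genes as regulated at late time points, and the comparison asks how these and the remaining genes moved between the last pair of time points.

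The tissue was checked against cell type markers. Pan-neuronal, astrocyte, oligodendrocyte and microglia markers were measured in all 3 groups, with *Snap25* at 1157 to 1587 at 28 dpi and 1564 to 1753 at 42 dpi. The summed value of 4 measured pituitary markers was 2.5 to 4.3 in sham-operated animals. It was 2.5 to 17.7 at 28 dpi and 3.4 to 7.3 at 42 dpi. Residual ribosomal RNA was uneven. The value of *Rn18s-rs5*, a ribosomal RNA gene, was 417970, 779160, 44755, 291950 and 323192 in the 28 dpi animals in the order given above, and 282927, 184745, 78737, 154685 and 457302 in the 42 dpi animals. It lay between 30321 and 52929 in sham-operated animals. The 2 stroke groups overlapped (log2 difference −0.45, exact two-sided permutation p = 0.595, n = 5 per group, adjusted p = 0.595 over 3 measures). The sum of values per animal overlapped too (log2 difference −0.24, permutation p = 0.444, exact, adjusted p = 0.595), and so did the slope of an animal's log2 differences from sham on log10 transcript length (difference −0.10, exact permutation p = 0.19, adjusted p = 0.57). The smallest p that 5 against 5 animals allow is 0.00794. Animal A3-3 had the highest ribosomal RNA value of the 10 and the lowest mean correlation with its own group, 0.977 across genes, against 0.980 to 0.985 in the other 9. A3-1, A3-3 and A3-4 share unit number 3 in their names, the only unit that holds animals of both time points.

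Of 16995 genes, 38 were SDEGs between the time points (0.224% of genes), with an adjusted p under 0.05 in limma (Benjamini-Hochberg over all genes) and a fold change above 1.5. Of these, 10 were higher at 42 dpi (0.0588%) and 28 were lower (0.165%). Without the fold limit, 246 genes rose (1.45%) and 84 fell (0.494%), mostly by less than 1.5-fold, with a median log2 difference of 0.32 for the genes that rose and −0.48 for those that fell. The median over all genes was −0.01, and 48.9% of all genes lay above 0. At an unadjusted p under 0.05, 12.3% of all genes were higher and 8.82% lower. The count of SDEGs rested on single animals. Without A3-3 there were 0 SDEGs, 1 gene with an adjusted p under 0.05 and 2517 genes with an unadjusted p under 0.05, against 3583 in all 10 animals. The count was 177 without A3-1, 163 without A4-1, 95 without A1-3, 30 without A3-4 and 17 without A4-4. It was 7 without A4-3, 7 without A1-1, 2 without A1-2 and 2 without A1-4, and 14 without the 3 animals of unit 3. In a fit of only these 10 animals 1 SDEG was left, with 2728 genes at an unadjusted p under 0.05. The split between directions also moved with the scaling, from 10 higher and 28 lower to 24 and 17 after quantile normalization and to 5 and 30 after median centring. The 10 higher SDEGs had a median log2 difference of 0.70 in all animals and 0.65 without A3-3, and the 28 lower ones of −0.81 and −0.72.

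In 6 of the higher and 10 of the lower SDEGs, the animals of the 2 time points did not overlap. Among all genes, 1.64% were higher and 0.924% lower at 42 dpi without overlap. Exons of 12 of the 38 SDEGs overlap those of another gene, and the library kit does not mark strand. Such overlap was not counted over all genes. The share of an SDEG's words of 31 bases that occur in another gene was over 50% in *Gm43079*, *Gm38394* and *Mt2*, and at most 19.7% in the other 9.

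**Figure D1:**
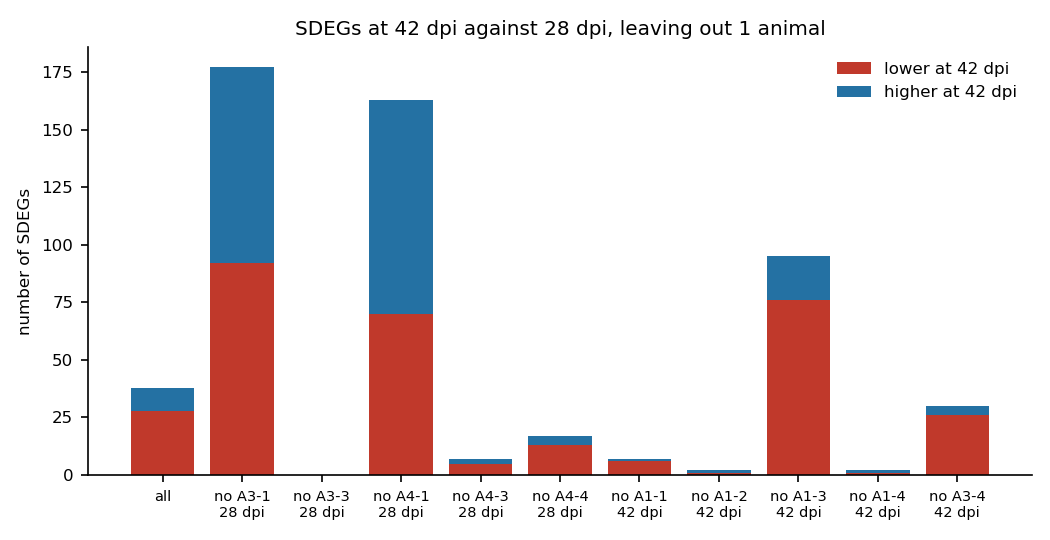
Number of SDEGs (y axis) in the comparison of 42 dpi with 28 dpi with all 10 animals (first bar) and with 1 animal left out (other bars), split into genes lower and higher at 42 dpi. The bar is empty without A3-3 and reaches 177 without A3-1.

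The call that survived the removal of every animal was *Vamp7*, a vesicle SNARE of late endosomes and lysosomes that takes part in neurite growth (chosen after its values were seen). In mm10 the gene lies on a scaffold that is not placed on a chromosome. Its value was 25.4, 25, 22.1, 23.1 and 24 at 28 dpi. At 42 dpi it was 33.1, 33.1, 30, 33.3 and 29.3. The lowest 42 dpi animal lay above the highest 28 dpi animal, and sham-operated animals (29 to 32) lay at the 42 dpi level. The log2 difference was 0.40 ± 0.06 (SE, limma adjusted p = 0.0103), and 0.37 to 0.43 when each animal was left out, with an adjusted p of 0.017 without A3-3. In the fit of only the 10 animals its adjusted p was 0.11 in limma, and 2 genes passed, *Hspa5* and *Gm43079* (adjusted p = 0.041 each). *Rab5a*, the small GTPase of early endosomes (chr17:53479234-53507671, mm10, also chosen after its values were seen), was 65.8, 49.4, 63.4, 52.6 and 53.7 at 28 dpi. At 42 dpi it was 77.3, 77.4, 75.9, 76 and 78.6, a narrow range above every 28 dpi animal. Its log2 difference was 0.44 ± 0.07 (adjusted p = 0.0105 in limma), and it stayed called in 9 of 10 fits that left out 1 animal (adjusted p = 0.064 without A3-3). Of all 330 genes with an adjusted p under 0.05, 5 were called in 8 or more of these fits.

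**Figure D2:**
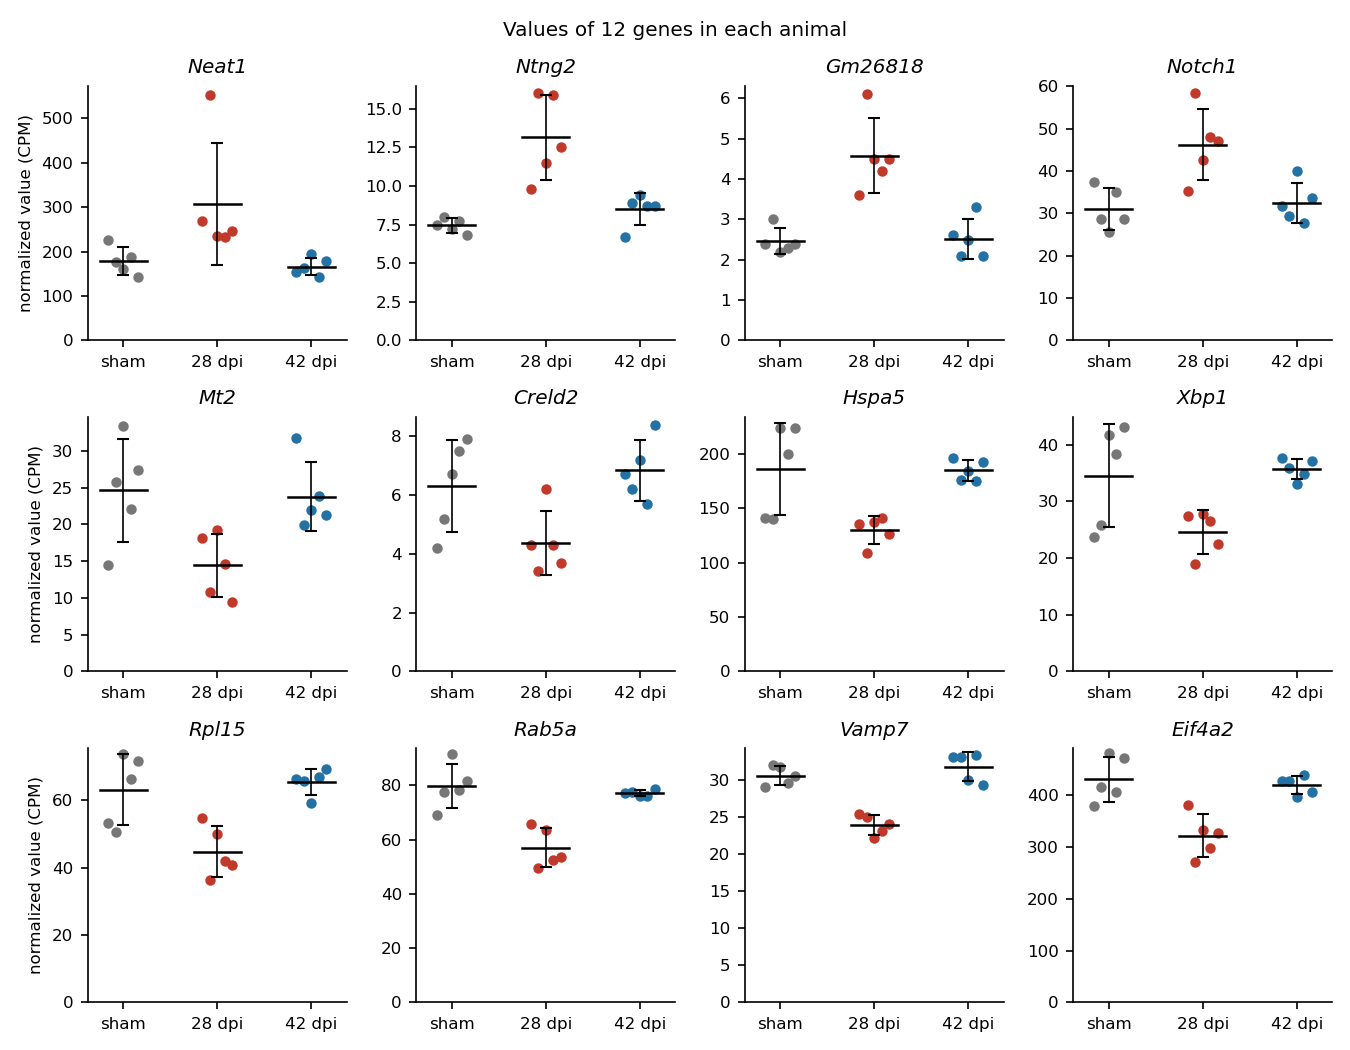
Normalized value (CPM, y axis) of 12 genes in each animal of the sham, 28 dpi and 42 dpi groups (points), with the group mean (line) and SD (error bar), n = 5 per group. In 10 of the panels the 28 dpi and 42 dpi animals do not overlap, and those of *Notch1* and *Creld2* overlap.

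Genes of protein folding and quality control were among those that rose. *Hspa5*, the main chaperone of the endoplasmic reticulum, was 135.2, 108.8, 137.5, 141.4 and 126.2 at 28 dpi and 195.9, 176, 184.7, 175 and 193 at 42 dpi. All 42 dpi animals lay above all 28 dpi animals, and sham-operated animals lay between 139.9 and 223.9, from the top of the 28 dpi range to above that of 42 dpi. The difference was 0.51 ± 0.11 on the log2 scale (limma adjusted p = 0.0248; 0.45 and adjusted p = 0.1 without A3-3). *Xbp1*, a transcription factor of the unfolded protein response (chosen after its values were seen), was 27.4, 18.9, 27.8, 26.6 and 22.4 at 28 dpi and 37.7, 35.9, 33.1, 34.8 and 37.1 at 42 dpi, again without overlap. It rose by 0.54 ± 0.12 (limma adjusted p = 0.0269). *Creld2*, a secreted endoplasmic reticulum stress protein, was the SDEG of this set. At 28 dpi it was 4.3, 3.4, 6.2, 4.3 and 3.7, and at 42 dpi 6.7, 6.2, 7.2, 5.7 and 8.4, where 1 animal of the earlier group (A4-1) reached the later range. It rose by 0.60 ± 0.15 (limma adjusted p = 0.0366).

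In a list of 31 endoplasmic reticulum chaperones and unfolded-protein genes, which was drawn up after the values were seen, 27 lay above 0, 8 rose and none fell. As 1.45% of all genes rose and the list was drawn up on these animals, its excess is not independent evidence. The median log2 difference was 0.20. The other 5 were *Dnajb11*, a co-chaperone of *Hspa5* (0.39), *Hsp90b1*, the Hsp90 of this compartment (0.29), *Pdia6* (0.40) and *Pdia3*, which form disulfide bonds, and the lectin chaperone *Canx* (0.21). The mean log2 difference from sham over the list was −0.32 to −0.15 in the 28 dpi animals and −0.08 to 0.02 in the 42 dpi animals, without overlap.

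The promoters of 3 of these genes are shown because they hold a shared element. The endoplasmic reticulum stress element was searched as CCAAT, 9 bases of any kind and CCACG on both strands in the 250 bases before each start (RefSeq, GRCm38.p6). It occurred in 0.113% of 32851 promoters and in 9 of the 26 list members with an entry. The capitals mark the element, and each sequence is written 5′ to 3′ on the strand of the gene. *Hspa5* lies on the plus strand (chr2:34771840-34772089), *Creld2* on the plus strand (chr15:88819396-88819645) and *Hsp90b1* on the minus strand (chr10:86705445-86705694).
Hspa5: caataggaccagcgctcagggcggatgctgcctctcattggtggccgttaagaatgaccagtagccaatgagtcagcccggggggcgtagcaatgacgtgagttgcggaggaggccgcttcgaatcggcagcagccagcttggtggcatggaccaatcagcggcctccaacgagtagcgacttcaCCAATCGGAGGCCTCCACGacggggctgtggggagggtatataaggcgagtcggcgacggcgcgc
Creld2: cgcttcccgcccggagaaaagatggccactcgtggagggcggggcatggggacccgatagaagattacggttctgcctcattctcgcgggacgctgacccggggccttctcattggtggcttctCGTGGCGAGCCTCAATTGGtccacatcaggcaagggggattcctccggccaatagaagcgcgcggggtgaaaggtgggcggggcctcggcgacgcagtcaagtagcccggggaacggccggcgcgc
Hsp90b1: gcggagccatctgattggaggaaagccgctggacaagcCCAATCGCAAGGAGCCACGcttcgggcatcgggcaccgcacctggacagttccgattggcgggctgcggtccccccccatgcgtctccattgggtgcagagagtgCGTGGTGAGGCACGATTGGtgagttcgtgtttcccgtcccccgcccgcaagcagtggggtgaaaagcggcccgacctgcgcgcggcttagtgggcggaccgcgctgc
Of the 18 measured genes whose promoter held the element, 14 lay above 0, with a median log2 difference of 0.15, and 5 rose (*Hspa5*, *Creld2*, *Pdia6*, *Hsp90b1* and *Canx*), against 1.45% of all genes. All 5 belong to the list above, drawn up after the values were seen, and none of the 9 genes outside it passed the test. A match of letters describes the sequence and was not tested as a binding site.

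Chaperones outside the endoplasmic reticulum passed the test in part. Of 8 subunits of the TRiC chaperonin, which folds actin and tubulin (a list drawn up after the values were seen), 8 lay above 0 and 5 rose, with a median of 0.26, which is likewise no independent evidence beside the 1.45% of all genes that rose. *Cct8* was 77.8 to 102.3 at 28 dpi and 104.9 to 113.8 at 42 dpi, and *Tcp1* was 103.1 to 114.9 and 120.4 to 141.8. In neither did the groups overlap. Of 21 heat shock proteins, 17 lay above 0 (median 0.23) and 4 rose, namely *Hspa5*, *Hsp90b1*, the mitochondrial chaperonin *Hspd1* (0.31 ± 0.07, limma adjusted p = 0.0321) and the Hsp70 partner *Dnaja1* (0.37 ± 0.09, limma adjusted p = 0.0331). Only the last of these is cytosolic. The most abundant members did not pass the test: *Hspa8* had a log2 difference of 0.29 (adjusted p = 0.0561, limma) and *Hsp90aa1* of 0.23 (adjusted p = 0.0818, limma). Of 38 proteasome subunits, 36 lay above 0 (median 0.25) and 4 rose (*Psmc1*, *Psmc6*, *Psma2* and *Psmd12*), with log2 differences of 0.29 to 0.45.

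Ribosomal and nuclear respiratory genes lay above 0 with few exceptions, yet few of them passed the test. Of 81 cytosolic ribosomal proteins, 80 had a positive log2 difference (median 0.35, against −0.01 for all genes) and 2 rose (over all genes 48.9% lay above 0 and 1.45% rose). *Rpl15* was 54.8, 36.5, 50.1, 41.9 and 40.7 at 28 dpi and 66.5, 65.7, 59.1, 66.8 and 69.2 at 42 dpi without overlap (0.56 ± 0.11, limma adjusted p = 0.0187). *Rps6*, a small-subunit protein phosphorylated in growth signalling, rose by 0.48 ± 0.13 (limma adjusted p = 0.0499), and its groups overlapped. Of 78 nuclear genes of oxidative phosphorylation, 77 lay above 0 (median 0.35) and 4 rose, namely the complex I subunits *Ndufb9* (0.48) and *Ndufv2* (0.45), cytochrome c (*Cycs*, 0.44) and the ATP synthase subunit *Atp5f1* (0.39). Of 78 mitochondrial ribosomal proteins, 76 lay above 0 (median 0.23) and 1 rose (*Mrpl40*), a share of 1.28% that is no higher than that of all genes. Of 15 genes encoded in the mitochondrial genome, 12 lay above 0 and none passed the test, with 6 higher at an unadjusted p under 0.05, against 12.3% of all genes. Among 55 initiation factors (a list drawn up after the values were seen), 40 lay above 0 and 5 rose, including *Eif4a2* (271.3 to 379.9 at 28 dpi, 395.8 to 438.9 at 42 dpi). Over the alternatives, 4 list medians were lowest within unit 3 and highest with the same sum in every animal. They ran from 0.19 to 0.58 for cytosolic and from 0.07 to 0.45 for mitochondrial ribosomal proteins, from 0.23 to 0.59 for oxidative phosphorylation and from 0.16 to 0.48 for the proteasome.

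Most of these lists divided the 28 dpi group. The mean log2 difference from sham of the ribosomal proteins was −0.06 in A3-1 and −0.003 in A4-1, but −0.68, −0.61 and −0.78 in A3-3, A4-3 and A4-4. In the 42 dpi animals it lay between −0.17 and 0.04, so A3-1 and A4-1 fell within the later range. Sham-operated animals also spread, from −0.45 to 0.29. Oxidative phosphorylation genes divided the same animals (−0.12 and −0.04 against −0.78 to −0.61), and so did proteasome subunits (−0.08 and −0.03 against −0.43 to −0.41). The slope on transcript length was 0.007 in A3-1 and 0.009 in A4-1, and 0.25, 0.26 and 0.35 in A3-3, A4-3 and A4-4. The part of this slope in the differences of these lists, whose ribosomal members have a median longest transcript of 1059 bases against 3233 for all genes, was not tested. Microglia markers also set A3-1 and A4-1 apart (0.37 in both against −0.08 to −0.03), as did early immune genes of the study (0.74 and 0.95 against 0.10 to 0.28). Genes encoded in the mitochondrial genome divided the animals otherwise, with 0.44, 0.42 and 0.34 in A3-1, A3-3 and A4-1 and −0.28 and −0.35 in A4-3 and A4-4. In the list of endoplasmic reticulum chaperones A3-1 and A4-1 were again the higher animals at 28 dpi (−0.19 and −0.15 against −0.32 to −0.27), though all 5 lay below the 42 dpi animals.

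**Figure D3:**
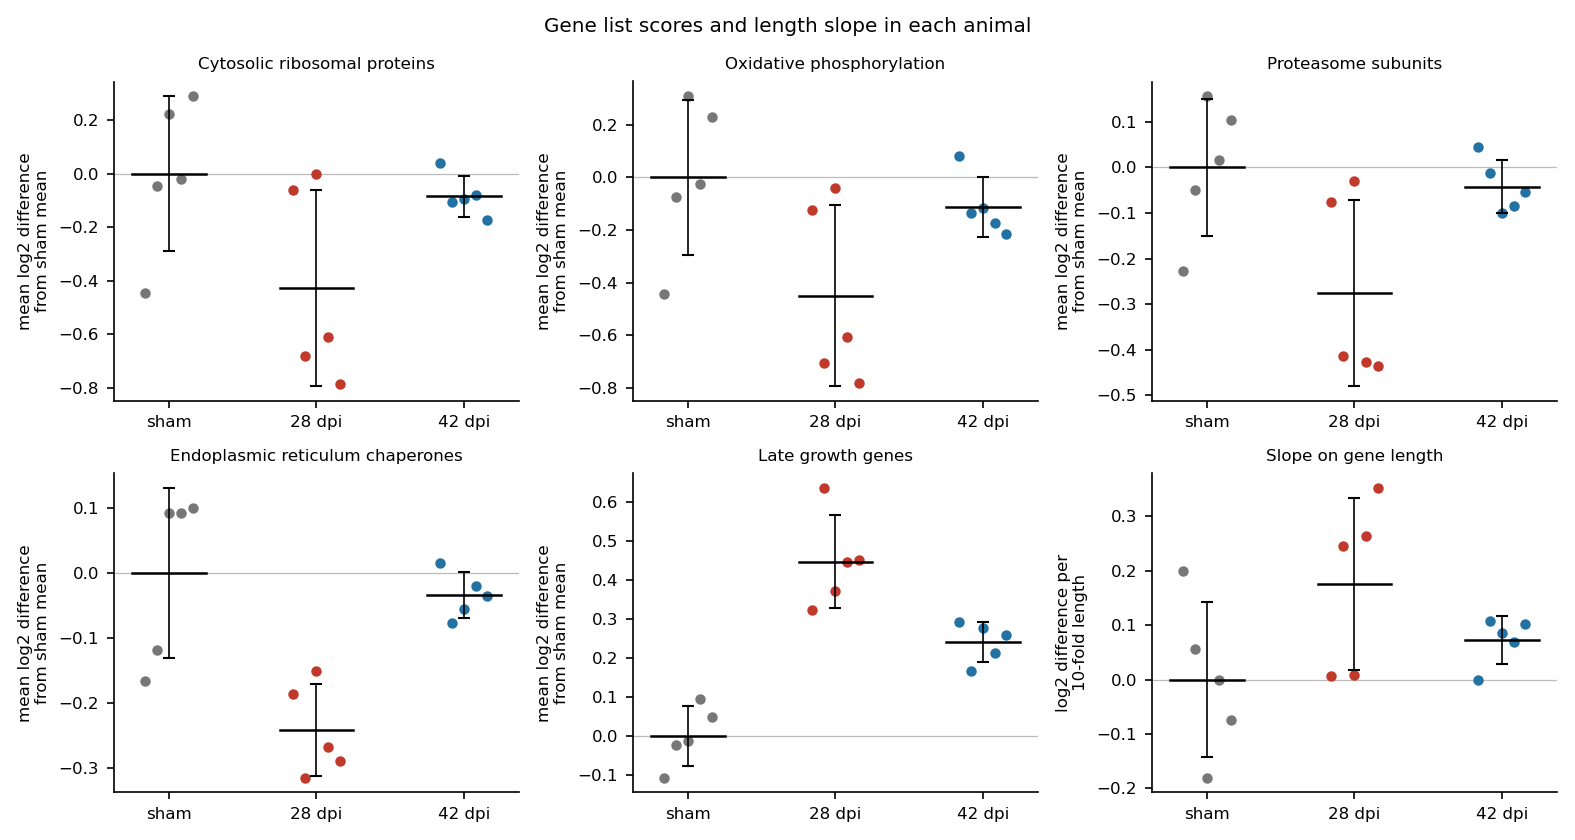
Mean log2 difference from the sham mean (y axis) over 5 gene lists and the slope of an animal's differences on log10 transcript length (last panel) in each animal (points), with group mean (line) and SD (error bar), n = 5 per group. The ribosomal, respiratory and proteasome lists divide the 28 dpi animals into 2 near the later level and 3 below it. The slope divides the same animals, but those 3 lie above the later level.

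Genes of vesicle traffic and splicing were also among those that rose, lists to be read against the 1.45% of all genes that rose and the 48.9% above 0. Of 52 Rab GTPases (a list drawn up after the values were seen), 44 lay above 0 (median 0.14), and *Rab5a*, *Rab2a* of the route from the endoplasmic reticulum to the Golgi (0.27) and *Rab6a* of the Golgi (0.21) rose. Of 19 subunits of the vacuolar ATPase, the proton pump that acidifies endosomes and synaptic vesicles (also listed after the values were seen), 17 lay above 0 (median 0.20) and 3 rose, led by *Atp6v1d* (56.5 to 77.7 at 28 dpi, 82.5 to 92.8 at 42 dpi). Of 44 splicing factors, 38 lay above 0 (median 0.12) and 6 rose, among them *Hnrnph1* (0.38), *Srsf2* (0.32), *Srsf3* (0.37) and *Srsf1* (0.22). The splicing, Rab and vacuolar ATPase lists divided the 28 dpi animals as the length slope did. Splicing factors were at −0.006 and −0.05 in A3-1 and A4-1, within the 42 dpi range of −0.06 to 0.03, and at −0.25 to −0.20 in the other 3. Rab GTPases were at −0.06 and −0.08 against −0.27 to −0.19, and vacuolar ATPase subunits at −0.13 and −0.09 against −0.37 to −0.28. The median longest transcript was 3861 bases for splicing factors, 3174 for Rab GTPases and 2567 for vacuolar ATPase subunits. Over all genes it was 3233 bases. The part of the slope in these differences was not tested.

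Metallothionein 2, a zinc-binding protein induced by glucocorticoids and metals, was a named SDEG that rose. *Mt2* was 18.1, 10.8, 19.2, 14.6 and 9.5 at 28 dpi and 31.8, 19.9, 21.9, 23.9 and 21.3 at 42 dpi, against 14.5 to 33.4 in sham-operated animals. The groups of the later and earlier time point did not overlap (0.73 ± 0.19, limma adjusted p = 0.0423; 0.64 and adjusted p = 0.15 without A3-3). Of its words of 31 bases, 57.6% occur in *Gm45774*, a gene on the opposite strand (*Mt2* itself lies at chr8:94172664-94173568, mm10). Its neighbour in the same family, *Mt1*, had a log2 difference of 0.43 that did not pass (limma adjusted p = 0.168), and the groups overlapped. Of 17 glucocorticoid-responsive genes, 13 lay above 0 (median 0.21), and *Pdk4*, a brake on glucose oxidation (0.53), and *Tsc22d3*, the leucine zipper protein GILZ (0.39), rose besides *Mt2*, against 1.45% of all genes. *Tsc22d3* was 95.9 to 116.5 at 28 dpi and 127.1 to 148.3 at 42 dpi.

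Most other SDEGs that rose had low values. *Alox5ap*, the partner protein of 5-lipoxygenase, was 0.3 to 0.7 at 28 dpi and 0.9 to 1.4 at 42 dpi. *Nudt17*, a predicted hydrolase, was 1.8 to 2.8 and 3.1 to 3.9, also without overlap. *Gm13558* was 0.6 to 1.1 and 1.2 to 1.9 without overlap. *Rida*, a deaminase of reactive enamines (0.65), the pseudogene *Znf41-ps* (0.76) and the long noncoding *A330087D11Rik* (0.93) rose with overlap, and 93.4% of the words of *Znf41-ps* occur in other genes. *Gm43079* was listed at 0 in 4 of the 28 dpi animals and at 1.0 to 2.7 at 42 dpi, but 94.9% of its words of 31 bases occur in *Acad9*, whose exons it overlaps. *Gm15501*, a pseudogene, was 4.1 to 8.0 and 9.0 to 18.5, and 71.7% of its words occur in another gene. Reads of the shared stretches cannot be told apart from those of the copies. In all, 11 of the 38 SDEGs shared over 50% of their words with another gene, a share that was not measured over all genes. Of the 38, 20 were predicted or unnamed genes, against 2858 of all 16995 genes.

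The late growth genes of the study lay nearer to sham at 42 dpi than at 28 dpi. This list of 16 was chosen by the study on these animals, so its direction is not independent evidence. Its median log2 difference was −0.31 from 28 dpi to 42 dpi, 3 members lay above 0, 3 fell and 1 (*Mt2*) rose, and 9 had a negative difference at an unadjusted p under 0.05. Over all genes 0.494% fell, 1.45% rose and 8.82% were lower at an unadjusted p under 0.05. Against sham, the median was 0.59 at 28 dpi and 0.21 at 42 dpi. *Ntng2*, a membrane-anchored netrin that binds a synaptic ligand on partner neurons (chr2:29194541-29253005, mm10), was the member that fell as an SDEG. At 28 dpi it was 9.8, 16, 11.5, 15.9 and 12.5, and at 42 dpi 6.7, 8.9, 9.4, 8.7 and 8.7, with 6.8 to 8 in sham-operated animals. Every 42 dpi animal lay below every 28 dpi animal (−0.59 ± 0.14, limma adjusted p = 0.0331; −0.51 and adjusted p = 0.13 without A3-3).

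*Sox9*, a transcription factor of astrocytes and progenitors, was 10.3 to 15.1 at 28 dpi and 8.1 to 11.2 at 42 dpi (−0.48 ± 0.13, limma adjusted p = 0.0455). *Notch3*, a receptor of mural cells, was 12.9 to 21.6 and 10.2 to 16.2 (−0.50 ± 0.14, limma adjusted p = 0.049987). The cytokine *Lif* was 1.2 to 2.2 at 28 dpi and 0.7 to 0.9 at 42 dpi without overlap, yet did not pass the test (limma adjusted p = 0.107). *Sema6a*, a transmembrane semaphorin, had a log2 difference of −0.27, the semaphorin receptor *Plxna1* of −0.27, the Slit-Robo effector *Srgap1* of −0.31 and the laminin receptor subunit *Itga3* of −0.24. None of these 4 passed the test, nor did *Tgfb1* (−0.31), *Tgfbr3* (−0.15), *Pax2* (−0.31) or *Bdnf* (0.34). *Gdf7*, a BMP-family ligand, spread widely at both times, from 1.9 to 22.9 at 28 dpi and from 3.3 to 12.3 at 42 dpi.

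Guidance and matrix lists, which include several of the genes just named, had medians below 0, and 0.494% of all genes fell. Of 54 collagens, laminins and integrins, 3 lay above 0 (median −0.19), none passed the adjusted test and 15 had an unadjusted p under 0.05 with a negative difference, against 8.82% of all genes. Of 31 semaphorins, plexins and neuropilins, 6 lay above 0 (median −0.13), and the receptor *Plxnb1* (−0.29) and the transmembrane *Sema4b* (−0.41) fell. *Plxnb1* was 77.2 to 99.4 at 28 dpi and 61.5 to 75.9 at 42 dpi without overlap. Of 43 ephrin, slit-robo and netrin genes, 10 lay above 0 (median −0.11) and *Ntng2* fell. Of 30 Notch pathway genes, 10 lay above 0 (median −0.10), and *Notch1* (35.2 to 58.4 at 28 dpi, 27.7 to 40.0 at 42 dpi) and *Notch3* fell. Of 47 TGF-beta and BMP genes, 11 lay above 0 (median −0.08) and none passed, with 6 lower and 3 higher at an unadjusted p under 0.05, against 8.82% and 12.3% of all genes. These 5 list medians, and those of mural cells and oligodendrocyte precursors, were above 0 when values were scaled to the same sum in every animal, a scaling that moved the median of all genes by 0.21. The 5 guidance and matrix lists had median longest transcripts of 3891 to 5988 bases and median GC contents of 52.5% to 56.2%. Over all genes these were 3233 bases and 49.1%. The part of transcript length and GC content in the 5 list medians was not tested.

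**Figure D4:**
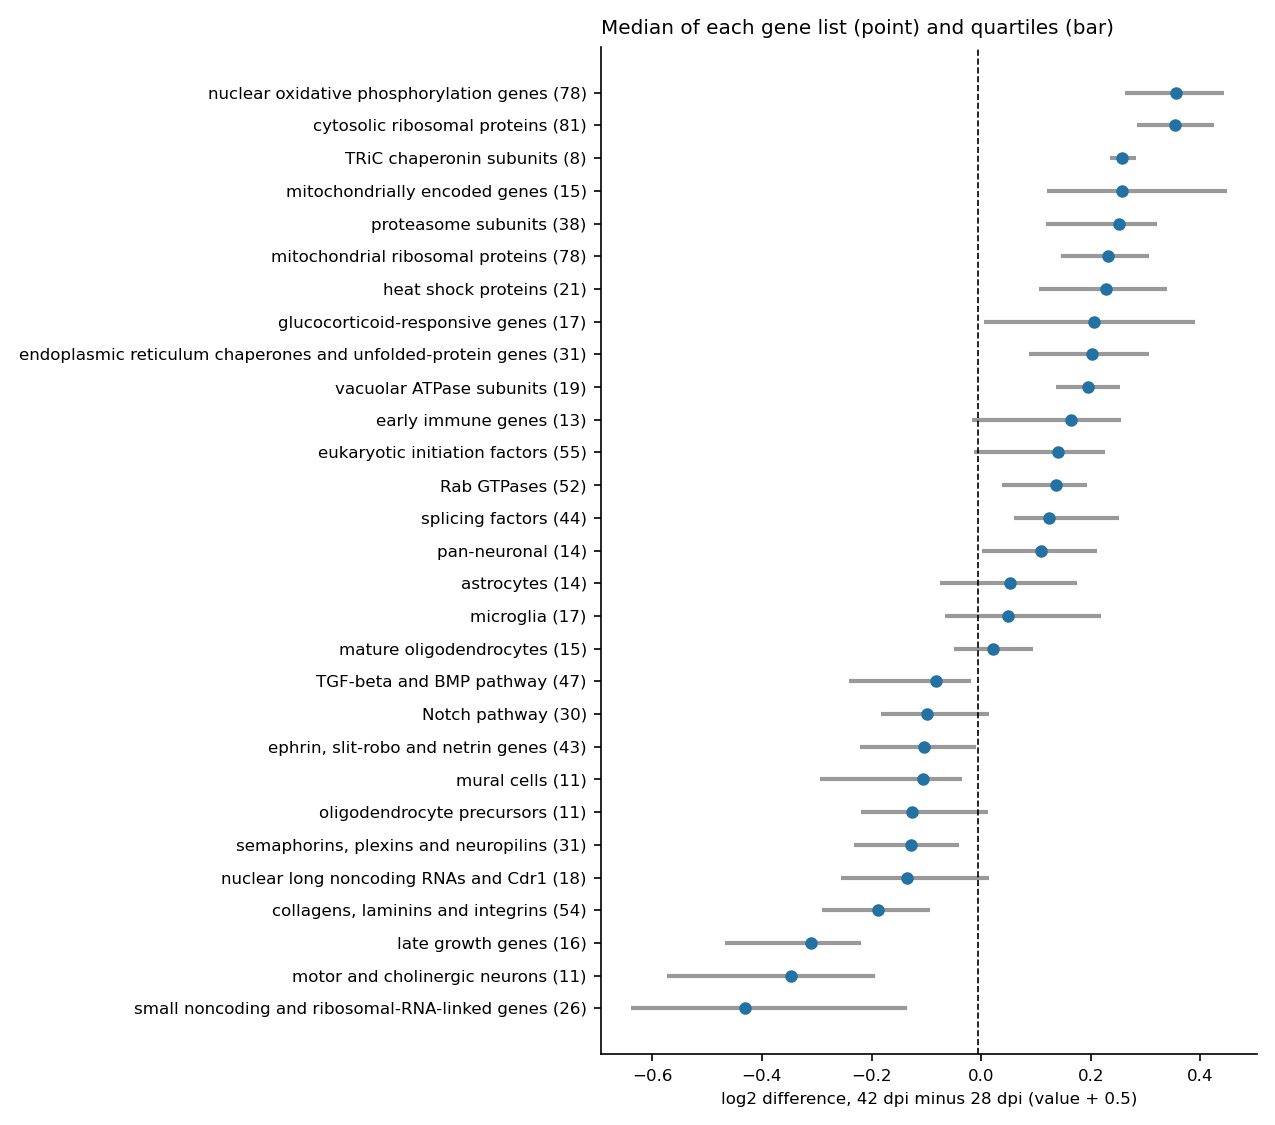
Median log2 difference of 42 dpi minus 28 dpi (points, x axis) and quartiles (bars) for 29 gene lists (y axis, number of genes measured in parentheses), with the median of all genes as a dashed line. The cytosolic ribosomal and nuclear oxidative phosphorylation lists lie highest, and the late growth, motor neuron and ribosomal-RNA-linked lists lie lowest.

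Of the 28 SDEGs that fell, 16 were predicted or unnamed genes, against 2858 of all 16995 genes. *Neat1*, the long noncoding RNA that builds nuclear paraspeckles (chr19:5824708-5845478, mm10), was 269.3, 552.1, 233.9, 232.4 and 245.8 at 28 dpi and 154, 162.4, 193.8, 143.2 and 177.7 at 42 dpi, with sham-operated animals at 143.3 to 225.7. The groups did not overlap, and A3-3 stood far above the rest (−0.80 ± 0.17, limma adjusted p = 0.0248; −0.57 and adjusted p = 0.087 without A3-3). The nuclear RNA *Malat1* had a log2 difference of −0.27 (limma adjusted p = 0.143). *Gm26818*, a long noncoding RNA, was 3.6, 6.1, 4.5, 4.2 and 4.5 at 28 dpi and 2.6, 2.1, 2.5, 3.3 and 2.1 at 42 dpi (−0.75 ± 0.14, limma adjusted p = 0.0187) and stayed called in 8 of 10 fits that left out 1 animal. *Gm5535* (2.0 to 4.3 against 0.9 to 1.7), *Gm26584* (1.4 to 2.1 against 0.6 to 1.2), *Wdr46-ps* (1.7 to 2.5 against 0.8 to 1.5) and *Gm45105* (8.8 to 16.3 against 5.1 to 7.7) did not overlap either. *Gm12396* did not overlap, but 100% of its words occur in *Psenen*. *Gm21655*, *Gm26397*, *Gm22154*, *Gm14340*, *Gm3052*, *Gm38394* and *Gm7694* fell by 0.60 to 1.38 on the log2 scale, and their groups overlapped. Shared words made up 79.3% of *Gm45105*, 96.7% of *Gm21655* and 91.2% of *Gm38394*.

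3 SDEGs are 1 measurement. *Gm24245*, *Gm24270* and *Gm23935*, annotated as miRNA genes on chromosomes 4, 9 and 16, have the same 57 bases in GENCODE M21, shown because reads of these genes cannot be told apart. Their values were equal within 0.1 in every animal.
Gm24245: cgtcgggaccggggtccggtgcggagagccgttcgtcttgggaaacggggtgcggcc
Their value was 115.8, 359.3, 411.5, 239.8 and 161.3 at 28 dpi and 63.3, 125.4, 89.5, 152.7 and 132.7 at 42 dpi, with overlap (−1.10 ± 0.27, limma adjusted p = 0.0331). Sham-operated animals lay at 158.4 to 338.8, above every 42 dpi animal. A4-1, with the lowest *Rn18s-rs5* value of the 10 animals, had 411.5, and A3-3, with the highest, had 359.3. The ribosomal-RNA-linked *Gm26917* was 2195.5 to 4764.4 at 28 dpi and 1665.2 to 2908.3 at 42 dpi, against 1593 to 1883.6 in sham-operated animals. The part of the uneven ribosomal RNA of these libraries in these differences was not tested. The list of 26 small noncoding and ribosomal-RNA-linked genes had a median of −0.43, but of 0.20 within unit 3 (2 animals at 28 dpi and 1 at 42 dpi).

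Among protein-coding SDEGs that fell without overlap, *Il20rb*, a receptor subunit for interleukin 20 family cytokines, was 0.9 to 1.3 at 28 dpi and 0.3 to 0.6 at 42 dpi, and *Tsku*, a secreted leucine-rich protein that modulates growth factor signals, was 1.0 to 2.4 and 0.3 to 0.9. With overlap, *Pear1*, *Cd248* (a pericyte and fibroblast surface protein), *Eva1c* (a Slit receptor), *Sbsn*, *Bhmt2*, *Chaf1b* (a histone chaperone subunit of replication) and *Atp8b1* (a lipid flippase) fell by 0.60 to 1.15 on the log2 scale. Each of these 9 genes had a mean under 4 at both times, where the added 0.5 understates a change. *Cspg4*, the NG2 proteoglycan of oligodendrocyte precursors and pericytes, was 12.6, 20.1, 13.4, 16.5 and 16 at 28 dpi and 11.2, 11.4, 11.2, 10.6 and 9.9 at 42 dpi without overlap, a fall below the fold limit of an SDEG (−0.50 ± 0.12, limma adjusted p = 0.0358).

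Few cell type markers passed the test, and those that fell were of oligodendrocyte precursors, mural cells and astrocytes. Over all genes, 1.45% rose and 0.494% fell. In bulk tissue, fewer cells of a type and less RNA per cell cannot be told apart. Of 17 microglia markers, 9 lay above 0 (median 0.05), and of 13 early immune genes of the study 9 (median 0.16). At 28 dpi the mean difference from sham of microglia markers was 0.37 in A3-1 and A4-1 and −0.08 to −0.03 in A3-3, A4-3 and A4-4. That of early immune genes was 0.74 and 0.95 against 0.10 to 0.28. At 42 dpi these means were 0.001 to 0.29 and 0.37 to 0.90. None in either list passed the test, with 4 microglia markers (2 in each direction) and no early immune gene at an unadjusted p under 0.05, against 21.1% of all genes. Both medians were −0.03 within unit 3, and that of microglia was also under 0 without A4-3, A4-4, A1-4 or A3-4. Of 14 pan-neuronal markers 11 lay above 0 (median 0.11) and *Elavl4*, a neuronal RNA-binding protein, rose (56.7 to 63.0 against 69.2 to 77.0). Of 39 glutamate, GABA and glycine receptor subunits 13 lay above 0 (median −0.02), and the glycine receptor subunit *Glrb* (0.25) rose. Of 11 myelin growth inhibitors and their receptors 6 lay above 0 (median 0.07), and the myelin glycoprotein *Omg* (0.29) rose. Mature oligodendrocyte markers had a median of 0.02. Of 11 markers of oligodendrocyte precursors 3 lay above 0 (median −0.13) and *Cspg4* fell. Their mean difference from sham was −0.13 to −0.04 at 28 dpi and −0.30 to −0.17 at 42 dpi, without overlap, but −0.17 to 0.22 among sham-operated animals, and within unit 3 the median was 0.02. Of 11 mural cell markers 2 lay above 0 (median −0.11), and *Cspg4*, which both lists hold, and *Notch3* fell. The mural mean was −0.03 to 0.30 at 28 dpi and −0.34 to 0.15 at 42 dpi, with overlap. The part of these cells in the differences of *Cspg4*, *Notch3* and *Cd248* was not tested. Of 14 astrocyte markers 9 lay above 0 (median 0.05) and *Sox9* fell. Of 11 motor and cholinergic markers 1 lay above 0 (median −0.35) and none passed, with 1 at an unadjusted p under 0.05. Their mean difference from sham was −0.61 to −0.32 in 4 of the 42 dpi animals and 0.46 in A3-4. It spread in the other groups too, from −0.29 to 0.55 at 28 dpi and from −0.73 to 0.71 in sham-operated animals, and within unit 3 the list median was 0.49. The part of motor neuron content in other differences was not tested.

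The direction of a gene's difference varied with its transcript length and GC content. The genes that rose had a median longest transcript of 2786 bases and 42.2% GC, those that fell 4086 bases and 56.5%, and all genes 3233 bases and 49.1%. Over deciles of transcript length, the median log2 difference was 0.06 in the shortest, 0.09 in the next and −0.09 in the longest. Over deciles of GC content it went from 0.05 to −0.07. After a correction of each animal for length and GC content, 13 SDEGs were left (2 higher and 11 lower). Without A3-3, the shortest and longest deciles had medians of 0.05 and −0.07.

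**Figure D5:**
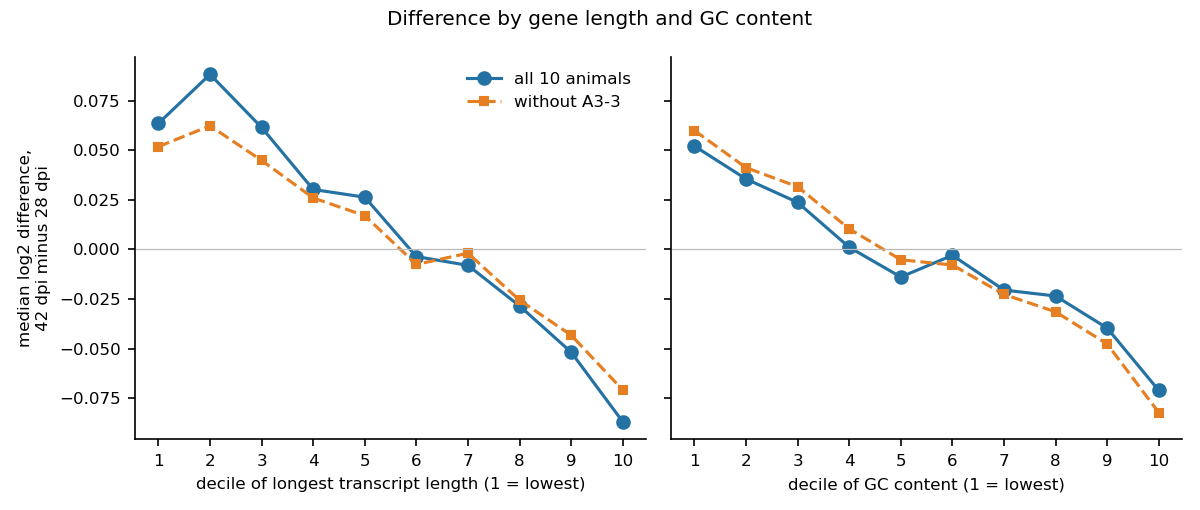
Median log2 difference of 42 dpi minus 28 dpi (y axis) over deciles of the genes by longest transcript length (left) and by GC content (right), with all 10 animals and without A3-3. Shorter and lower-GC genes lie above 0 and longer and higher-GC genes below it in both.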

How the data were processed

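RNA of the intermediate laminae was sequenced by the authors (TruSeq v2 after Ribo-Zero depletion, a kit that does not mark strand), quantified on mm10 with SALMON and Tximport, filtered for low expression and normalized with edgeR (3.14.0 under R 3.4.1 per the labels). The deposited score is this normalized CPM, rounded to 0.1. It is not a count, so depth is unknown and only the spread between animals gives the precision. The labels list 30 animals, and 29 have values. Per the study's methods, RNA of all samples was extracted at the same time, and surgery was balanced over groups by blocked randomization. Libraries were pooled for sequencing, and the runs are not given in the sources used here.

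Values were analysed as log2(value + 0.5) in 1 limma fit (3.58.1, R 4.3.3) with 1 mean per group over all 6 groups and a trend on the mean, with Benjamini-Hochberg adjustment over 16995 genes. The pseudocount understates changes of low genes. SDEGs were genes past 1.5-fold with an adjusted p under 0.05. Single measures were compared with exact two-sided permutation tests. Lists are described by counts and medians without a test. Gene types, lengths and shared words of 31 bases came from GENCODE M21. The authors' own fold changes and p-values were not used. The method was tested on simulated data. Python 3.11.15, numpy 2.4.6, scipy 1.17.1, pandas 2.3.3 and matplotlib 3.10.9 were used.

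The comparison, the lists and the members were chosen with earlier results of these data known. Genes were named if they were SDEGs without overlap between the 5 and 5 animals (up to 15 each way), late growth genes of the study, called or most abundant members of a described list, or the ribosomal RNA gene. Other genes named, *Vamp7*, *Rab5a*, *Xbp1*, *Pdia6*, *Pdia3* and the remaining SDEGs, and 5 lists were chosen after their values were seen, as was leaving out unit 3. Alternatives were other pseudocounts, filters, scalings, covariates, limits, the unit as a random block, and leaving out each animal. Values of some genes are not reported here.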

Additional observations from a re-analysis of the deposited data

Results flagged for a closer look

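In groups of 5 animals, 9 of 280 tested groups held an animal set apart from the other 4, by a gap to its nearest neighbour that was large against the range of the group. Chance flags about 1 in 20 groups. At 28 dpi, A3-3 was highest for *Neat1* (552) and *Atp8b1* (4.8), A3-1 was highest for *Gm43079* (0.6, with the others listed at 0), and A4-4 was lowest for *Dnajb11* (17.7). At 42 dpi, A1-1 was lowest for *Ntng2* (6.7), A1-3 was lowest for *Nudt17* (3.1) and *Hspa8* (1550), A1-4 was lowest for the Notch pathway list (mean log2 difference from sham −0.10), and A3-4 was highest for the motor and cholinergic list (0.46).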

How the results depend on the processing

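The count of SDEGs, 38 (10 higher, 28 lower), moved beyond 1.5 times under most alternatives. All / higher / lower counts were 1, 1 and 0 in a fit of only the 10 animals, 13, 3 and 10 without the trend, 10, 6 and 4 with the same sum in every animal, 1, 1 and 0 with the same sum without ribosomal-RNA-linked genes, 22, 4 and 18 with ribosomal RNA as a covariate, 88, 19 and 69 with unit as a replicate block, 13, 2 and 11 with length and GC correction, and 14, 8 and 6 without the animals of unit 3. They were 330, 246 and 84 without the fold limit, 114, 24 and 90 at an adjusted p under 0.1, and 9, 2 and 7 at a fold above 2. The higher SDEGs numbered 6 and 17 with pseudocounts of 1 and 0.05, the quantile split was 24 and 17, and median centring left 5 higher. Leaving out 1 animal gave 0 to 177 SDEGs, 0 to 93 higher and 0 to 92 lower. The groups share no replicate numbers, only unit 3, and the correlation within units was −0.04, so the block rests on a number only. The difference between groups in ribosomal RNA, sum of values and length slope did not pass its test under any alternative. Of 108 genes, 4 changed direction under 1 alternative each: *Gm22154* (0.36) and *Omg* (−0.012) within unit 3 alone, *Tgfbr3* (0.076) with the same sum in every animal, and *Tgfb1* (0.036) without unit 3. Calls of single genes were lost in 1073 and gained in 18 of 2580 gene and alternative pairs; the causes were not tested. The depth behind each value is unknown.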
